A study of Rattus norvegicus and Bos taurus with 6 samples.

Results

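In the Parse single-nucleus libraries of rat and cow fat, 9 transcripts that the files list by an Ensembl gene ID and no gene symbol were examined, 8 of the 38697 genes of the rat table and 1 of the 36075 genes of the cow table. They were chosen by measured values, namely the UMIs they take in a library or the difference between the libraries labelled mesPVAT and RP fat, so those values are given as a description. The rat transcripts are ENSRNOG00000087169, ENSRNOG00000089373, ENSRNOG00000088851, ENSRNOG00000085139, ENSRNOG00000066732, ENSRNOG00000077021, ENSRNOG00000088887 and ENSRNOG00000050960, and the cow transcript is ENSBTAG00000066082. For ENSRNOG00000050960 the files give a clone-based name in place of a symbol. The name, class and function of the 9 transcripts are not given in the sources used here, and no role is assigned to them.

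The rat fat came from male Dahl SS rats (SS/HsdMcwiCrl) on a normal diet. The cow fat came from lactating female Holstein cows in their second lactation, on a common lactation diet. Ages and the number of animals per library are not given in the sources used here. The rat depots were mesenteric perivascular fat (mesPVAT) and retroperitoneal (RP) fat, which are white, thoracic aortic perivascular fat (taPVAT) and subscapular brown fat (BAT), and the cow depot was subcutaneous white fat of the flank (cow WAT). No animal was treated, the tissue was snap frozen, and taPVAT homogenates were spun more slowly than those of rat and cow white fat. Cow homogenates passed a further, finer filter that was left out for the rat. Each depot had 1 Parse library, so no difference between depots was tested, and the 95% intervals (exact binomial for shares, exact conditional for ratios) cover counting error only.

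A nucleus holds unspliced precursors and long noncoding RNAs that stay at the chromatin, and a genome annotation can carry such transcripts under a stable ID without a name. The Parse method fixes nuclei and labels their RNA in place over rounds of splitting into wells and pooling. The first round marks the sample, so each library occupies first-round wells of its own, and nuclei are mixed from then on. Wells of a library are not counted as replicates, and whether they held nuclei of the same suspension, tissue piece or animals is not given in the sources used here.

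The library labelled mesPVAT held 3028 nuclei and that of RP fat 2805, taPVAT and BAT held 2708 and 2699, and the cow library held 2297, with 0 of 13537 barcodes shared between libraries. Every barcode called as a nucleus is termed a nucleus here. For mesPVAT and RP fat the paper reports that true nuclei were hard to tell from background RNA. The part of background RNA in the values of these depots was not tested. Total UMIs (unique transcripts counted) ranged from 845316 in RP fat to 16827260 in cow WAT, and the median per nucleus from 213 to 3530 UMIs in the same libraries. By first-round well, the median nucleus had 294 and 311 genes in the library labelled mesPVAT and 196 and 200.5 in that labelled RP fat. The paper reports the opposite order, with more median genes in RP fat than in mesPVAT. Its order of median transcripts per nucleus, and of the highest UMI total of a nucleus, is likewise the opposite. Here the median was 346 UMIs in the library labelled mesPVAT and 213 in that labelled RP fat. The highest total was 41374 UMIs in the former and 5611 in the latter. The labels were followed throughout, and whether those of mesPVAT and RP fat are exchanged was not tested. Each value given below for either depot holds for the library with that label. The brown fat genes separated the depots, as Ucp1, the uncoupling protein of brown adipocytes, had 1782 CPM (UMIs of a gene per 1000000 UMIs of a library) in taPVAT and 2072 CPM in BAT but 63.4 CPM in mesPVAT and 89.9 CPM in RP fat. Plin1, which coats lipid droplets, had 1287 CPM in mesPVAT, 478 in RP fat, 2435 in taPVAT and 2501 in BAT, and it had 164 CPM in the cow. Genes listed by ID alone, 18193 in the rat table and 16442 in the cow table, took 22.5% of the UMIs of mesPVAT, 28.1% of RP fat, 17.7% of both brown libraries and 24.7% of the cow library. The transcripts described here took 6.81% of UMIs in mesPVAT and 5.48% in RP fat, 12.5% and 12.8% in taPVAT and BAT, and 11.1% in the cow library. Ranks of genes below are by UMIs and are not adjusted for transcript length.

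A single rat transcript, ENSRNOG00000087169, took the most UMIs of any gene in mesPVAT, taPVAT and BAT and the second most in RP fat. The order in RP fat differed between its first-round wells. In A9, ENSRNOG00000087169 had 14423 CPM, below ENSRNOG00000088851 (30866 CPM) and ENSRNOG00000089373 (16198 CPM). In A10 it had 18748 CPM, above both (2737 and 8296 CPM). Of all UMIs, ENSRNOG00000087169 took 5.33% in mesPVAT (95% interval, 5.29 to 5.36), 1.59% in RP fat, 11.9% in taPVAT and 12.2% in BAT. The brown depots thus lay above the white depots, and RP fat was lowest. In the cow, ENSBTAG00000066082 ranked first with 11.1% of UMIs. After the transcripts described here, the 3 genes with the most UMIs were Col5a3, Dst and Syne2 in mesPVAT (0.547%, 0.453% and 0.363% of UMIs), Rbfox1, Cdh13 and Dst in RP fat (0.120%, 0.120% and 0.110%), ENSRNOG00000086174, Ebf1 and Gnas in taPVAT (0.404%, 0.319% and 0.316%), and ENSRNOG00000086174, Utrn and Ebf1 in BAT (0.400%, 0.389% and 0.352%). In cow WAT they were ENSBTAG00000057590, ENSBTAG00000061247 and ENSBTAG00000052369, with 2.44%, 2.30% and 1.25% of UMIs. The list of 15 nuclear and structural noncoding RNAs that was to be compared had 0 members matched by name in either table.

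The spread between first-round wells of a library was set beside the differences between libraries, and it does not measure the spread between animals. In taPVAT, ENSRNOG00000087169 took 14.7% of UMIs in well A4, 11.2% in A5 and 10.5% in A6. In BAT it took 12.3% in well A1, 11.2% in A2 and 13.9% in A3. The wells of taPVAT and BAT overlapped, so the difference between these depots was smaller than the spread between wells. In mesPVAT the wells A7 and A8 had 5.82% and 4.94%, and in RP fat the wells A9 and A10 had 1.44% and 1.87%. The ranges of the white depots overlapped neither each other nor those of the brown depots. ENSBTAG00000066082 took 8.17% of UMIs in cow well A11 and 14.0% in well A12.

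**Figure D1:**
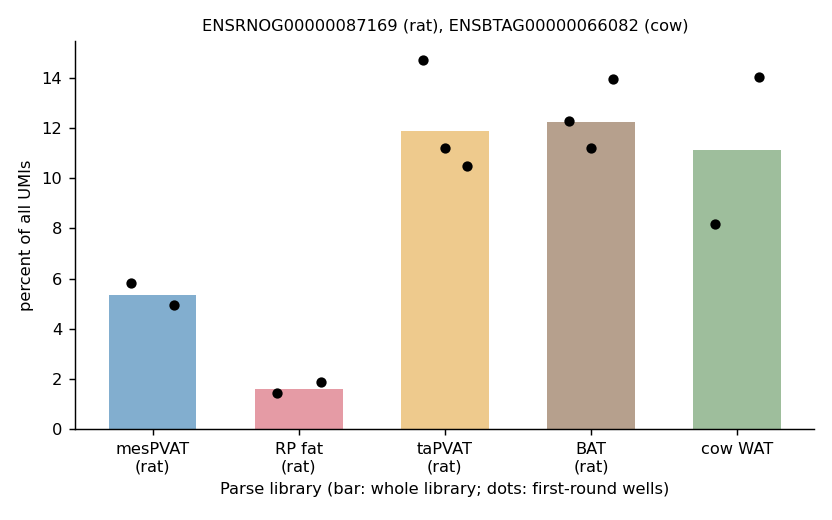
Percent of all UMIs taken by ENSRNOG00000087169 in the rat libraries and by ENSBTAG00000066082 in cow WAT, as bars for the whole Parse library and dots for its first-round wells. The bars stand at 5.33% (mesPVAT), 1.59% (RP fat), 11.9% (taPVAT), 12.2% (BAT) and 11.1% (cow WAT), and the wells of taPVAT and BAT overlap.

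ENSRNOG00000087169 in the rat and ENSBTAG00000066082 in the cow were found in most nuclei of each library. In taPVAT, BAT and cow WAT, 0 nuclei lacked their transcript, and the median nucleus held 123, 219 and 440 UMIs of it. In mesPVAT 34 nuclei (of 3028) had no UMI of ENSRNOG00000087169, where a common share of UMIs in every nucleus would leave 0.0412. In RP fat 416 nuclei had none, against 183 for a common share. After thinning each nucleus to 200 UMIs, the share of nuclei with a UMI was 97.0% in mesPVAT and 82.4% in RP fat, against 99.9% in both brown libraries and 99.8% in the cow library. Thinning left out 15.7% of the nuclei of mesPVAT and 46.4% of those of RP fat. The median share of a nucleus was 3.77% in mesPVAT (interquartile range, 2.03% to 6.95%) and 1.08% in RP fat (0.513% to 2.20%). It was 10.2% in taPVAT (5.86% to 14.9%), 12.1% in BAT (7.53% to 15.6%) and 10.1% in the cow library (5.52% to 19.9%).

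The highest number of UMIs of ENSRNOG00000087169 in a nucleus was 402 of 3441 in mesPVAT, 100 of 1934 in RP fat, 2606 of 21099 in taPVAT and 3730 of 31787 in BAT. All 4 of these nuclei were adipocyte-like by their markers. Among nuclei with at least 500 UMIs, the largest share was 37.7% in the rat, in taPVAT, and 80.4% in the cow. For ENSBTAG00000066082, the highest count was 14639 of 71947 UMIs, in a nucleus with markers of adipose stem and progenitor cells (ASPC). The nuclei with the highest counts in taPVAT, BAT and cow WAT exceeded the study's upper limit of 15000 per nucleus, and doublets were not removed here. The cow transcript took over 20% of the UMIs of 571 nuclei and the rat transcript over 20% of 57 nuclei in mesPVAT, 1 in RP fat, 183 in taPVAT and 148 in BAT. In 144 cow nuclei the cow transcript took over 50%, and 115 of these were in well A12.

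The rat and the cow transcript differed in how their share moved with the depth of the nucleus. Nuclei were ranked by the UMIs of all other genes and split into 4 depth groups of equal size. In the cow, the share was 32.6% in the shallowest group, 15.5% and 12.2% in the next ones and 8.44% in the deepest, a ratio of the deepest to the shallowest group of 0.259 (0.258 to 0.260). The fall was present in both cow wells, from 24.5% to 6.66% in A11 and from 37.2% to 10.4% in A12. For ENSRNOG00000087169 the ratio in mesPVAT was 0.992 (0.968 to 1.02) and in RP fat 0.813 (0.768 to 0.860), while taPVAT had 1.28 (1.26 to 1.29) and BAT 1.11 (1.098 to 1.12). The direction turned between the wells of the white depots, with 0.947 in A7 and 1.07 in A8 of mesPVAT and 0.669 in A9 and 1.17 in A10 of RP fat, and each brown well lay above 1. The Spearman correlation over nuclei between the share and the UMIs of other genes was −0.46 in cow WAT and 0.05, −0.04, 0.28 and 0.16 in mesPVAT, RP fat, taPVAT and BAT. The UMIs of other genes rank the nuclei and also enter the total of each share. The ratios between depth groups and these correlations are therefore a description.

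**Figure D2:**
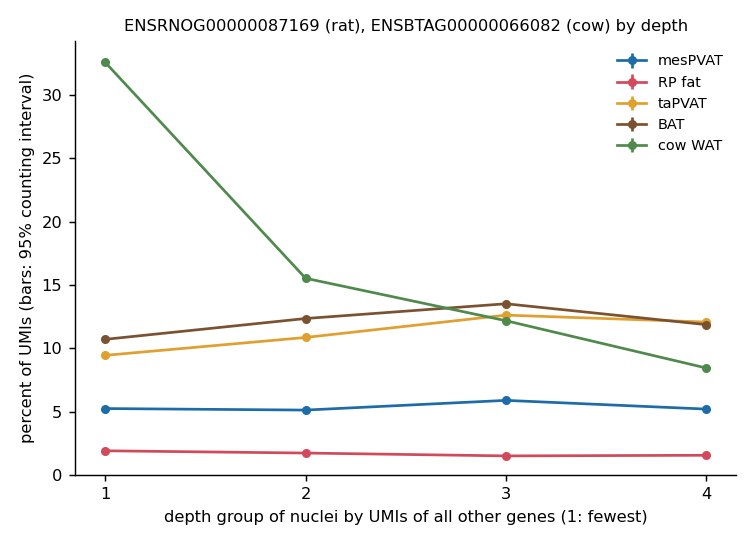
Percent of UMIs taken by ENSRNOG00000087169 in the rat libraries and ENSBTAG00000066082 in cow WAT (y axis, with 95% counting intervals) in 4 depth groups of nuclei ranked by the UMIs of all other genes (x axis), 1 line per Parse library. The cow line falls from 32.6% to 8.44%, and the rat lines end at 0.813 to 1.28 times the value of their shallowest group.

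Each of the other rat transcripts had a lower share in the deepest than in the shallowest group of taPVAT and of BAT. The interval reached past 1 for ENSRNOG00000066732 in BAT (0.715, 0.465 to 1.14). A fall of at least 2-fold was most frequent in taPVAT. At least 2-fold lower in the deepest than in the shallowest group were 1 of 8 in mesPVAT (ENSRNOG00000077021, 0.346, against 4.15% of all genes with at least 50 UMIs), 1 in RP fat (ENSRNOG00000066732, 0.267, against 3.92%), 6 in taPVAT (against 20.7%) and 2 in BAT (against 17.7%). In cow WAT 12.0% of genes fell this far, ENSBTAG00000066082 among them. In taPVAT, ENSRNOG00000089373 went from 8123 CPM in the shallowest to 2581 CPM in the deepest group, and ENSRNOG00000077021 from 160.5 to 26.6 CPM. Other ratios were above 1, in RP fat for ENSRNOG00000088851 (1.39, 1.31 to 1.47) and ENSRNOG00000050960 (1.52, 1.26 to 1.86), and in mesPVAT for ENSRNOG00000088851 (1.33, 1.08 to 1.64) and ENSRNOG00000088887 (1.59, 1.07 to 2.46).

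Nuclei were next classed by the list with the most marker UMIs (at least 2, without a tie). A class was given to 54.1% of nuclei in mesPVAT and 25.5% in RP fat, and 38.3% and 63.8% of these lay 1 UMI from another outcome. In taPVAT, BAT and the cow library 92.5%, 96.9% and 95.2% of nuclei had a class, and 9.03%, 5.39% and 6.77% of these lay near the limit. ENSRNOG00000087169 had its highest share in adipocyte-like nuclei of every rat library. It took 9.83% of their UMIs in mesPVAT and 3.67% in RP fat, and 13.9% in both brown libraries. Immune-like nuclei had the lowest share among the classes in each rat library, with 1.48% in mesPVAT, 0.636% in RP fat, 4.63% in taPVAT and 4.49% in BAT. Adipocyte-like nuclei stood above the other classed nuclei 3.23-fold (3.18 to 3.28) in mesPVAT, 2.67-fold (2.54 to 2.81) in RP fat, 2.14-fold (2.12 to 2.16) in taPVAT and 1.95-fold (1.93 to 1.96) in BAT. Of the 8 rat transcripts it was the single one past 2-fold higher in mesPVAT, RP fat and taPVAT, where 6.24%, 5.72% and 11.3% of all genes were, and 0 were in BAT, where 13.2% of genes were. The median depth of adipocyte-like nuclei was above that of endothelial-like nuclei in mesPVAT (562.5 against 488 UMIs), taPVAT (1930 against 897) and BAT (2194 against 1051), and below it in RP fat (338 against 458.5).

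The order of classes was different in the cow. ENSBTAG00000066082 took 6.86% of the UMIs of adipocyte-like nuclei, 14.2% in ASPC-like, 11.8% in endothelial-like, 9.72% in immune-like and 9.67% in pericyte or smooth muscle-like nuclei. The 5 Schwann or neuronal-like nuclei had 19.5%, with a median share per nucleus of 8.98%. The 111 nuclei without a class had the highest share, 34.5%, and a median of 1934 UMIs, against 6008 UMIs in the 259 adipocyte-like nuclei. Adipocyte-like nuclei had 0.562 times (0.560 to 0.564) the share of the other classed nuclei. The class with the highest share differed between the species, which were counted on different genomes and annotations. The cow share also fell with depth, and the part of depth in its order of classes was not tested.

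**Figure D3:**
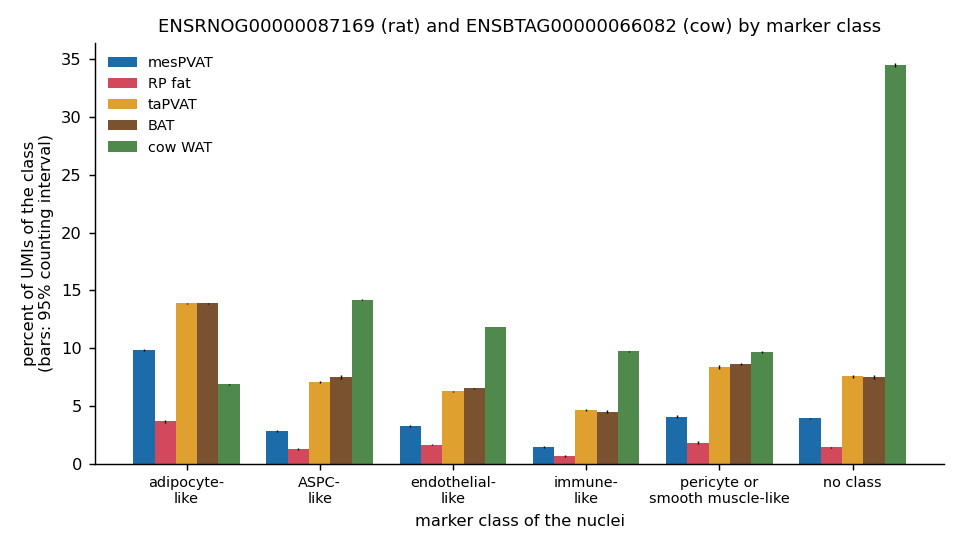
Percent of the UMIs of a marker class taken by ENSRNOG00000087169 in the rat libraries and ENSBTAG00000066082 in cow WAT (bars, with 95% counting intervals). The rat libraries peak in adipocyte-like nuclei (9.83%, 3.67%, 13.9% and 13.9%), while in cow WAT these nuclei have 6.86% and nuclei without a class 34.5%.

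In BAT and taPVAT, the genes whose pattern over 4906 nuclei with at least 500 UMIs was most like that of ENSRNOG00000087169 were Plin1 (mean Pearson r of 0.63), Acsl1, which activates fatty acids (0.59), and Ppargc1b, a coactivator of mitochondrial genes (0.56), against a median of 0.02 over the 3415 other genes compared. At the other end were ENSRNOG00000089373 (−0.51), Dst (−0.46) and Cdh13 (−0.44). In cow WAT, 3 genes listed by ID alone followed ENSBTAG00000066082 over 2297 nuclei, namely ENSBTAG00000057590 (r of 0.92), ENSBTAG00000056429 (0.92) and ENSBTAG00000052369 (0.91), against a median of −0.10 over 7464 genes. Their shares fell with depth like that of ENSBTAG00000066082, from 4.67% to 2.01%, from 0.994% to 0.372% and from 2.44% to 1.04% between the shallowest and the deepest group. ENSBTAG00000061247, the gene with the third most UMIs, ran against it (−0.66) and had 1.55% in the shallowest and 2.50% in the deepest group. Nuclei of a library differ in depth, and values per nucleus share a total, so these correlations are a description.

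In the contrast that chose them, 5 of 8 rat transcripts were at least 2-fold higher in RP fat than in mesPVAT and 2 were at least 2-fold lower, while 4.87% of the 10729 genes with at least 50 UMIs were higher and 6.83% lower. ENSRNOG00000088851 had 864 CPM in mesPVAT and 21372 CPM in RP fat, a ratio of 24.7 (23.4 to 26.1), the largest of these genes. It took 2.14% of all UMIs of RP fat and ranked first there, and ranked 28 in mesPVAT. Of its 18066 UMIs in RP fat, 17285 were in well A9, and in A10 it lay below ENSRNOG00000087169. ENSRNOG00000085139 followed with 86.9 and 569 CPM, a ratio of 6.55 (5.42 to 7.94). ENSRNOG00000066732 had 93.0 and 377 CPM (4.06), ENSRNOG00000077021 had 56.1 and 207 CPM (3.69), and ENSRNOG00000088887 had 266 and 897 CPM (3.37). These were positions 8, 15 and 27 of the list by ratio. ENSRNOG00000089373 had 9180 and 13531 CPM, a ratio of 1.47 (1.44 to 1.51) at position 2624. The ratio was 0.466 (0.442 to 0.492) for ENSRNOG00000050960, which had 4240 CPM in mesPVAT and 1976 CPM in RP fat, and 0.298 (0.293 to 0.304) for ENSRNOG00000087169. Just outside the leading pair at the top of the list was Fos, an immediate early gene, with 15.7 and 99.4 CPM (6.33), and at the other end stood ENSRNOG00000072030, with 29.0 and 2.37 CPM (0.0817).

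Within the RP fat library, 4 of these transcripts stood among the 8 genes with the highest ratio between its first-round wells. Well A9 held 1845 nuclei and 560003 UMIs, and well A10 held 960 nuclei and 285313 UMIs. ENSRNOG00000088851 had 30866 CPM in A9 and 2737 CPM in A10, an 11.3-fold difference (10.5 to 12.1) between wells of the same library. ENSRNOG00000066732 had 529 and 80.6 CPM (6.56-fold), ENSRNOG00000088887 had 1232 and 238 CPM (5.17-fold) and ENSRNOG00000085139 had 745 and 224 CPM (3.32-fold). ENSRNOG00000089373 had 16198 CPM in A9 and 8296 CPM in A10 (1.95-fold). These wells gave 4 of 8 transcripts at least 2-fold higher in A9, against 1.18% of 3981 genes, and they stood at positions 1, 2, 4 and 8 of that list. ENSRNOG00000077021 ran the other way, with 141 CPM in A9 and 336 CPM in A10 (0.419, 0.307 to 0.571), 1 of 8 at least 2-fold lower, against 1.08% of genes. ENSRNOG00000087169 (0.769) and ENSRNOG00000050960 (0.892) differed by less than 2-fold. The transcripts were chosen in part by values of RP fat, most of whose UMIs lay in A9. A transcript high in A9 alone could thus enter the set, so the counts set against all genes are a description.

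The difference between the wells was spread over most barcodes called as nuclei in A9. In A9, 84.2% of nuclei had a UMI of ENSRNOG00000088851, with a median share of 1.94% of the nucleus (interquartile range, 0.670% to 4.01%) and a highest count of 271 UMIs. In A10, 40.0% of nuclei had one, the median share was 0 and the highest count was 15 UMIs. Sorted by their second-round well, A9 nuclei ranged from 12152 to 65279 CPM over 96 wells and A10 nuclei from 355 to 7532 CPM, so the ranges did not overlap. Both sublibraries showed it, with 28809 and 33785 CPM in A9 against 2836 and 2628 CPM in A10. Depth and summed markers of the wells were close, with medians of 214 UMIs in A9 and 212 UMIs in A10, with adipocyte markers at 1479 and 1430 CPM, ASPC markers at 1620 and 1847 CPM, endothelial markers at 1448 and 1553 CPM and immune markers at 957 and 1002 CPM. Mitochondrial genes took 0.0693% of UMIs in A9 and 0.113% in A10, and the part of these values in the difference between wells was not tested. At the ends of the list of all genes, ENSRNOG00000073271 (94.6 against 17.5 CPM) was among the genes higher in A9, and Kpna4, an importer of proteins into the nucleus (98.2 against 729 CPM), was lowest, both named after their values were seen.

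Taken against mesPVAT one at a time, the RP fat wells gave different answers for some transcripts. With A9 alone 5 of 8 were at least 2-fold higher (against 5.36% of genes) and 2 lower (9.33%). With A10 alone 3 of 8 were higher (against 5.54%) and 1 lower (9.25%). Both wells are part of the contrast that chose the transcripts, so these counts are a description. ENSRNOG00000088851 was 35.7-fold (33.9 to 37.7) above mesPVAT in A9 and 3.17-fold (2.90 to 3.46) in A10. ENSRNOG00000085139 remained higher in both wells (8.57 and 2.58), as did ENSRNOG00000077021 (2.51 and 5.99). ENSRNOG00000066732 was 5.69-fold higher in A9 and 0.867 times mesPVAT in A10 (0.534 to 1.35). For ENSRNOG00000088887 the ratios were 4.63 and 0.895 (0.683 to 1.16). ENSRNOG00000089373 was at 1.76 in A9 and 0.904 (0.865 to 0.944) in A10. ENSRNOG00000087169 was lower than in mesPVAT in both, at 0.271 and 0.352. ENSRNOG00000050960 was at 0.448 in A9 and 0.502 in A10, where it fell just short of being 2-fold lower.

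**Figure D4:**
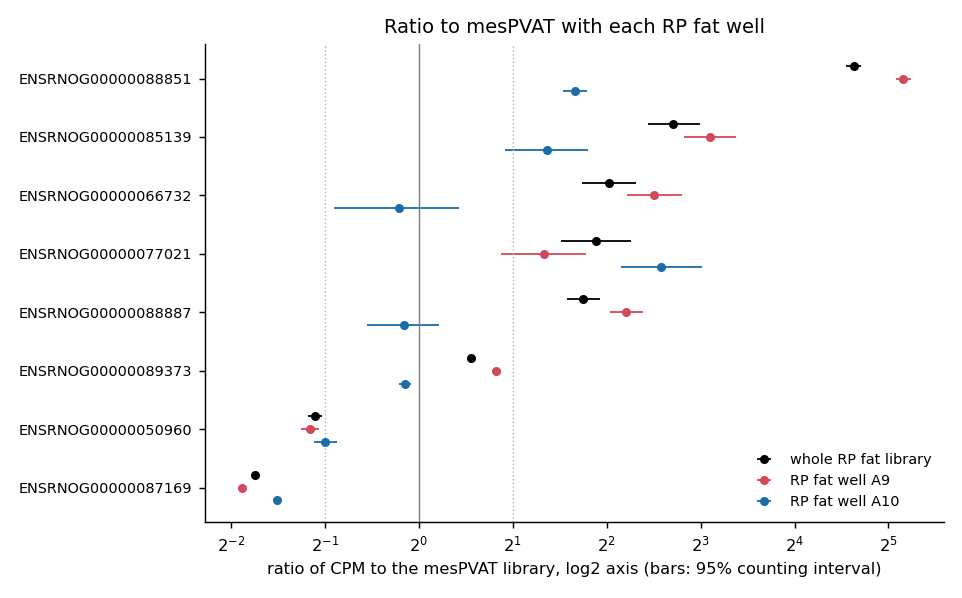
Ratio of CPM in RP fat to CPM in mesPVAT (log2 x axis, bars are 95% counting intervals) for 8 rat transcripts, with the whole RP fat library in black, well A9 in red and well A10 in blue. ENSRNOG00000088851 falls from 35.7-fold in A9 to 3.17-fold in A10, and ENSRNOG00000066732, ENSRNOG00000088887 and ENSRNOG00000089373 lie below 1 in A10.

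Between the wells of the other rat libraries, 2 or 3 of these transcripts differed at least 2-fold. In mesPVAT, 1 of 8 was at least 2-fold higher in A7 than in A8 (ENSRNOG00000077021, 79.6 and 37.7 CPM, against 0.452% of genes) and 1 lower (ENSRNOG00000066732, 52.1 and 125 CPM, against 0.684%). ENSRNOG00000050960 had 2721 and 5433 CPM there, just short of 2-fold. Between the highest and the lowest of the 3 wells, 3 of 8 differed at least 2-fold in taPVAT (against 7.64% of genes) and 2 of 8 in BAT (against 6.23%). The largest was ENSRNOG00000066732 in taPVAT, from 25.3 to 119 CPM. Over the 10 rat wells, ENSRNOG00000088851 ranged from 595 to 1328 CPM in the 8 wells outside RP fat, below both RP fat wells. For ENSRNOG00000085139 the 8 wells ranged from 55.1 to 133 CPM and for ENSRNOG00000077021 from 8.28 to 79.6 CPM, also below both RP fat wells. For ENSRNOG00000066732, well A10 (80.6 CPM) lay inside the range of the other libraries (25.3 to 125 CPM), and so did A10 for ENSRNOG00000088887 (238 CPM, against 64.0 to 306 CPM).

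**Figure D5:**
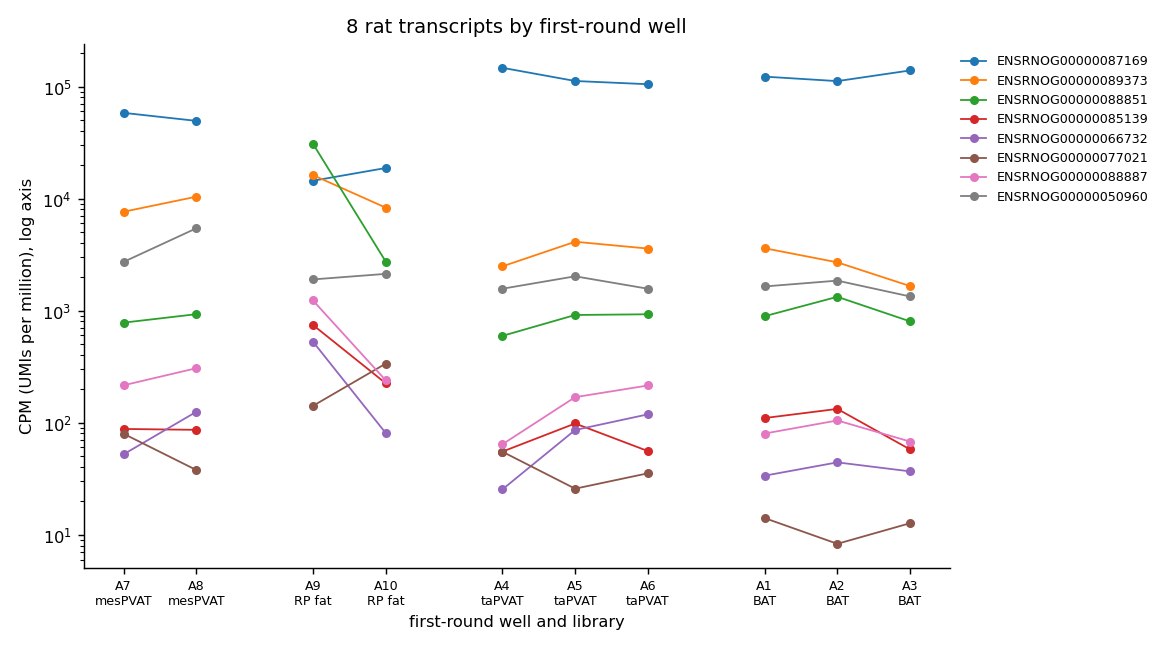
CPM (log axis) of the 8 rat transcripts in each first-round well (x axis), with lines joining the wells of 1 library. ENSRNOG00000088851 reaches 30866 CPM in RP fat well A9 and 2737 CPM in A10, above the 595 to 1328 CPM of the other 8 wells, while ENSRNOG00000087169 is between 104912 and 147075 CPM in the brown depots and 14423 and 18748 CPM in RP fat.

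The difference between taPVAT and BAT was not used to choose the transcripts. From taPVAT to BAT, 0 of 8 were at least 2-fold higher (against 0.457% of 13581 genes) and 2 were lower (against 3.59%). These were ENSRNOG00000077021, with 36.9 CPM in taPVAT and 11.4 CPM in BAT (0.309, 0.232 to 0.408), and ENSRNOG00000066732, with 81.6 and 38.6 CPM (0.473, 0.403 to 0.556). With the sublibraries pooled, the wells did not overlap for ENSRNOG00000077021. By sublibrary, it had 45.8 CPM in taPVAT and 7.91 CPM in BAT in sublibrary 1. In sublibrary 2 it had 27.2 and 14.9 CPM, short of 2-fold. The wells overlapped in sublibrary 2, where taPVAT well A5 (12.3 CPM) lay inside the BAT range (11.7 to 21.6 CPM). Well A6 also lay inside that range, and well A4 (62.3 CPM) lay above it. For ENSRNOG00000066732, taPVAT well A4 (25.3 CPM) lay below the BAT wells (33.6 to 44.2 CPM) and wells A5 and A6 (85.9 and 119 CPM) above them. Both white rat libraries were at least 2-fold above both brown libraries for 1 of 8, where 37.3% of genes were, and at least 2-fold below for 1 of 8, where 7.12% were. This comparison includes the mesPVAT and RP fat values that chose the transcripts, so its counts are a description. The transcript above was ENSRNOG00000089373, with 9180 CPM in mesPVAT, 13531 in RP fat, 3495 in taPVAT and 2753 in BAT, and the transcript below was ENSRNOG00000087169. ENSRNOG00000088851 had 834 CPM in taPVAT and 1044 CPM in BAT, close to the 864 CPM of mesPVAT. ENSRNOG00000050960 had 1741 CPM in taPVAT and 1650 CPM in BAT, near RP fat and below mesPVAT. In these libraries ENSRNOG00000085139 had 71.8 and 106 CPM and ENSRNOG00000088887 had 157 and 86.7 CPM.

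By class, most of the other rat transcripts were lower in adipocyte-like nuclei of the brown depots. In taPVAT 6 of 8 were at least 2-fold below the other classed nuclei, against 24.8% of genes, and in BAT 5 of 8, against 22.7%. The 6 in taPVAT were the same 6 that were at least 2-fold lower in its deepest nuclei. Adipocyte-like nuclei of taPVAT were also deeper, with a median of 1930 UMIs against 897 in endothelial-like nuclei. In BAT, ENSRNOG00000085139 was the single one of the 5 that was also at least 2-fold lower in the deepest nuclei. Short of 2-fold, ENSRNOG00000089373 (0.508), ENSRNOG00000088887 (0.535) and ENSRNOG00000088851 (0.574) were lower there too. The interval of ENSRNOG00000066732 (0.715, 0.465 to 1.14) reached past 1. The part of depth in these class values was not tested. In mesPVAT 1 of 8 was (ENSRNOG00000088851, 0.431, against 12.7%), and in RP fat 1 of the 7 with enough UMIs (ENSRNOG00000085139, 0.494, against 8.36%). ENSRNOG00000089373 had 2530 CPM in adipocyte-like and 6018 CPM in endothelial-like nuclei of taPVAT, and 2030 and 5145 CPM in BAT. ENSRNOG00000088851 was present in each large class of RP fat, with 16522 CPM in adipocyte-like, 25018 in ASPC-like, 27516 in endothelial-like, 17415 in immune-like and 28719 CPM in pericyte or smooth muscle-like nuclei, and with 19716 CPM in nuclei without a class.

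Like ENSRNOG00000087169 in adipocyte-like nuclei, ENSRNOG00000050960 and ENSRNOG00000077021 each kept a highest class of their own over the 4 rat libraries. ENSRNOG00000050960 was highest in Schwann or neuronal-like nuclei of every rat library, a class of few nuclei. These had 41985 CPM in mesPVAT (6 nuclei, 154 UMIs, of which 88 in 1 nucleus), 14060 in RP fat (2 nuclei), 15346 in taPVAT (7 nuclei) and 9835 in BAT (21 nuclei, each with a UMI). The other classed nuclei had 4218, 2489, 1693 and 1596 CPM, ratios of 9.95 (8.42 to 11.7), 5.65 (3.84 to 8.03), 9.06 (7.51 to 10.8) and 6.16 (5.52 to 6.86). Of all genes, 19.0%, 22.8%, 18.2% and 19.7% were at least 2-fold higher in these nuclei, so a ratio past 2-fold is common in so small a class. Leaving out the nucleus with the most UMIs of it gave 21470 CPM in mesPVAT, 11476 in taPVAT and 8555 in BAT. In RP fat this took out 23 of the 32 UMIs and left 1 nucleus, at 31469 CPM. ENSRNOG00000077021 was highest in immune-like nuclei among the classes of each rat library, with 145 CPM in mesPVAT, 236 in RP fat, 399.7 in taPVAT and 206 in BAT, where 11.4%, 2.81%, 19.5% and 22.7% of genes were at least 2-fold higher than in the other classed nuclei. In RP fat the nuclei without a class were higher still, at 271 CPM. In taPVAT the other classed nuclei had 20.1 CPM, a ratio of 19.8 (14.5 to 27.1), and 25 of 204 immune-like nuclei had a UMI. In BAT 8 of 68 did, with 14 UMIs in all and a ratio of 22.3 (11.5 to 40.6). The ratio was 3.75 (1.75 to 7.37) in mesPVAT, on 11 UMIs in 5 of 117 nuclei, and 2.30 (1.01 to 4.79) in RP fat, on 10 UMIs in 6 of 78 nuclei.

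Nucleus by nucleus, ENSRNOG00000089373 followed ENSRNOG00000088851 in each rat library. Over nuclei with at least 500 UMIs, they had a Pearson r of 0.70 in RP fat, 0.53 in mesPVAT, 0.57 in taPVAT and 0.60 in BAT. Within A9 alone (258 nuclei) it was 0.80, the highest of the 1259 genes compared with ENSRNOG00000088851, and ENSRNOG00000085139 (0.42) and ENSRNOG00000088887 (0.41) came next. ENSRNOG00000087169 ran against ENSRNOG00000088851 in the brown depots (−0.41 in taPVAT and −0.43 in BAT) and hardly with it in RP fat (0.01). ENSRNOG00000077021 had r between −0.05 and 0.02 with ENSRNOG00000088851 in the 4 libraries. These nuclei differ in depth and the values of a nucleus share its total, so the values are a description.

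The share of nuclei with a UMI differed widely among the other rat transcripts. After thinning to 200 UMIs, a UMI of ENSRNOG00000088851 was found in 13.3% of nuclei of mesPVAT, 72.7% of RP fat, 16.1% of taPVAT and 17.4% of BAT. For ENSRNOG00000089373 the shares were 68.0%, 78.6%, 50.2% and 39.5%, and for ENSRNOG00000050960 39.1%, 24.3%, 25.5% and 23.8%. ENSRNOG00000085139 was found in 1.66%, 10.1%, 1.84% and 2.49%, ENSRNOG00000088887 in 4.59%, 14.0%, 3.76% and 2.01%, ENSRNOG00000066732 in 1.85%, 5.78%, 2.10% and 0.835%, and ENSRNOG00000077021 in 0.95%, 2.18%, 0.979% and 0.354%. The values of RP fat pool wells that differed. Without thinning, ENSRNOG00000088887 was in 27.0% of A9 and 6.56% of A10 nuclei and ENSRNOG00000066732 in 14.3% and 2.29%. ENSRNOG00000085139 was in 16.3% and 6.35%, and ENSRNOG00000077021 ran the other way (2.49% and 3.44%). The highest count in a nucleus over the rat libraries was 145 UMIs for ENSRNOG00000089373 and 92 UMIs for ENSRNOG00000050960, and at most 10 UMIs for ENSRNOG00000085139, ENSRNOG00000066732, ENSRNOG00000077021 and ENSRNOG00000088887.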

How the data were processed

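Parse reads were separated by species and counted by the authors with split-pipe on GRCr8 for rat and ARS-UCD1.3 for cow, and raw UMI counts of barcodes called as nuclei were deposited. UMI counts of called 10x Genomics barcodes were deposited likewise. Samples were grouped by their labels, with 1 library per condition. The transcripts, marker lists and comparisons were chosen with earlier results of these data known.

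Every deposited barcode was used (Python 3.11.15, scipy 1.17.1, numpy 2.4.6, matplotlib 3.10.9, pandas 2.3.3), and doublets were not removed. CPM is UMIs summed over nuclei per 1000000. A gene counted as higher or lower at a fold of 2, among genes with at least 50 UMIs in the groups compared, with a count of 0 on the lower side set to 3. Nuclei were classed from up to 57 of the 59 listed markers (53 in the cow table). Shares of nuclei with a UMI were compared at 200 UMIs. Genes named were the 9 transcripts, in each Parse library the 3 other genes with the most UMIs, the gene just outside at each end of the RP fat to mesPVAT list, and the 3 genes most correlated with ENSRNOG00000087169 and with ENSBTAG00000066082 (detected in at least 10% of nuclei); others are said to be named after their values were seen. Alternatives changed the nuclei kept, sublibraries, weighting, denominator, thresholds and, after the data were seen, first-round wells. The calls were tested on simulated counts with counting error alone, without any spread between wells, nuclei or animals.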

Additional observations from a re-analysis of the deposited data

Results flagged for a closer look

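The 10x Genomics mesPVAT library, which the comparisons do not use, held a signal of ENSRNOG00000050960, at 1130 CPM (1071 to 1190; 1398 of 1237543 UMIs) in 15.02% of 5887 nuclei, where a count of 0 would allow 2.42 CPM. The library carries another batch number in the labels and was counted on another rat genome, and the Parse mesPVAT library had 4240 CPM. ENSRNOG00000066732 had 2 UMIs there, under the limit of 3 counts. The other rat transcripts, ENSRNOG00000087169 among them, have no value for that library here, so nothing is said of their presence in it.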

How the results depend on the processing

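Well A10 of RP fat alone turned the log2 ratio of RP fat to mesPVAT to −0.15 for ENSRNOG00000089373, −0.21 for ENSRNOG00000066732 and −0.16 for ENSRNOG00000088887, and left 3 transcripts higher and 1 lower. Nuclei with at least 500 UMIs also left 1 lower. Of all genes, 523 were higher and 733 lower, against 1811 higher with at least 20 UMIs, 42 and 159 at a fold of 3, and 5273 and 2169 without a filter. The depth ratio of ENSRNOG00000087169 passed 1 in mesPVAT with nuclei split at the median (1.04), as a mean over nuclei (1.08) and in well A8 (1.07), and in RP fat in well A10 (1.17).

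The share of ENSRNOG00000087169 in mesPVAT was 5.66% under the study's limits, 5.44% in nuclei with at least 500 UMIs, 5.46% without the nucleus with the most UMIs, 5.05% and 5.63% by sublibrary, 5.28% as a mean over nuclei, 5.72% without the 8 transcripts in the total, and 5.82% and 4.94% by well. In RP fat it was 1.64% and 1.52% by sublibrary, 1.65% as a mean, 1.68% with the reduced total, and 1.44% and 1.87% by well. In taPVAT it was 12.0% under the limits, in deeper nuclei and in sublibrary 1, 11.8% in sublibrary 2, 10.9% as a mean, 13.6% with the reduced total, and 14.7%, 11.2% and 10.5% by well. In BAT it was 12.4% under the limits, 12.3% in deeper nuclei, 12.5% and 12.0% by sublibrary, 11.8% as a mean, 14.0% with the reduced total, and 11.2% and 13.9% in wells A2 and A3. The share of ENSBTAG00000066082 was 14.3% under the limits on UMIs and genes (no mitochondrial limit could be applied, as 0 cow genes carry a mitochondrial name), 11.2% without the top nucleus, 11.2% and 11.0% by sublibrary, 15.9% as a mean, 12.5% with the reduced total, and 8.17% and 14.0% by well. The cause of these shifts was not tested.

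With 1 library per depot, the spread between animals is unknown. Nuclei of the library labelled RP fat were the shallowest, so its classes rest on few marker UMIs.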
